A study of Rattus norvegicus with 22 samples.

Results

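The genes described here act in DNA repair. A list of 46 was drawn up by pathway and matched to the gene names on the array, and 40 of the 46 were found, each with 1 probe, among 26583 gene and transcript names. Ercc2, Ercc4, Ddb1, Ddb2, Msh3 and Msh6 had no probe under those names, so mismatch repair is represented by Pms2 alone. The study asked how gene expression in oral squamous cell carcinoma (OSCC) differs from that of the tissue next to it. Tongues of male F344 rats, an inbred strain, were used. The animals had drunk water with 20 ppm 4-nitroquinoline-1-oxide (4-NQO) during 10 weeks and were about 33 weeks old, and tissue was taken 23 to 26 weeks after the first dose. From each of 11 rats a carcinoma and phenotypically normal tongue beside it were taken, so both groups had been exposed to the carcinogen, although the labels list no treatment for the normal pieces and call the animals untreated. Neither group is a purified epithelium: each piece is bulk tongue, in which fewer cells of a type and less RNA per cell cannot be told apart.

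4-NQO is turned in the cell into a reactive form that binds purine bases as bulky adducts, and it also leaves oxidised bases. Bulky adducts are cut out by nucleotide excision repair, small base lesions by base excision repair, and alkyl groups on guanine are taken off directly by Mgmt. Breaks in both strands are rejoined by homologous recombination or end joining, crosslinks are opened by the Fanconi anaemia proteins, and translesion polymerases copy past lesions that remain.

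RNA was read on 1-color Agilent arrays. A level is the log2 processed signal of a probe minus the 75th percentile of its array, so that 0 is that percentile, and a difference is OSCC minus normal within a rat. Over all 30367 probes the median difference was -0.24. Between 48.42% and 56.1% of the probes of the normal arrays and between 52.28% and 65.49% of those of the OSCC arrays were well above background. The arrays of normal tissue and the OSCC arrays of animals 4 and 9 share 1 scan day, the remaining 9 were read on a different day, and no slide held both tissues, so slide and tissue cannot be told apart. Marker genes of the tongue's cell types were read first. The 7 squamous epithelial markers found on the array were well above background on all 22 arrays. Their mean difference was -2.22 in animal 24 and between -0.64 and 0.91 in the other pairs. Of 10 skeletal muscle markers 7 were lower in OSCC and 1, Myh2, was higher, but their mean was higher in OSCC in the pairs of animals 21, 22 and 24, by 1.87, 1.18 and 1.46. The medians in these pairs were only 0.70, 0.26 and 0.70. Actn3 (8.83, 3.20 and 6.68) and Myh2 (4.89, 7.60 and 3.70) were the highest of the 10, and Mb or Myh4 was lower in each. In every other pair the mean and the median were below 0. Those 3 OSCC pieces stand apart from the others in this, and the results named below that gain or lose a call without them are given with that value. Of 10 leukocyte markers 9, and all 8 serous gland markers, were higher in OSCC.

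Repair genes moved in both directions and by small amounts. In the paired limma fit, with Benjamini-Hochberg adjustment over all probes and a threshold of 0.05, 10 of the 40 genes were higher in OSCC (25%) and 10 were lower (25%), while 20 did not pass. Over all probes 16.2% were higher and 27.9% lower by the same rule, 44% together. The median difference of the 40 genes was 0.09. The genes that rose were Rad23b, Ung, Lig3, Brca1, Xrcc4, Lig4, Atm, Chek2, Fancd2 and Fanca, and those that fell were Ercc5, Ercc6, Mutyh, Nthl1, Xrcc1, Mgmt, Pms2, Rad52, Atr and Rev1. Of the fitted differences that of Fanca alone passed 2-fold, a size that cannot be relied on because its normal signals were at background, and 6.86% of all probes were higher and 6.97% lower by that rule. Of the 40 genes 29 were well above background on all 22 arrays, and among these 5 rose and 8 fell, with a median difference of 0.00. The corresponding shares of all 13603 probes of that kind were 19.4% and 28.4%. Mgmt, Xrcc1 and Rev1 passed as lower under each of 5 other scalings and with any 1 pair left out, whereas the call of 6 genes, named below, did not survive the loss of some single pairs. The split between the directions moved with the scaling. The array median gave 3 of the 40 genes higher and 12 lower, and normexp background correction gave 0 and 3 (limma, 2 and 4 at an unadjusted p under 0.05) and turned the sign of Brca1. Of all 30367 probes the array median called 3364 higher and 13887 lower, and normexp 1629 and 1989.

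**Figure D1:**
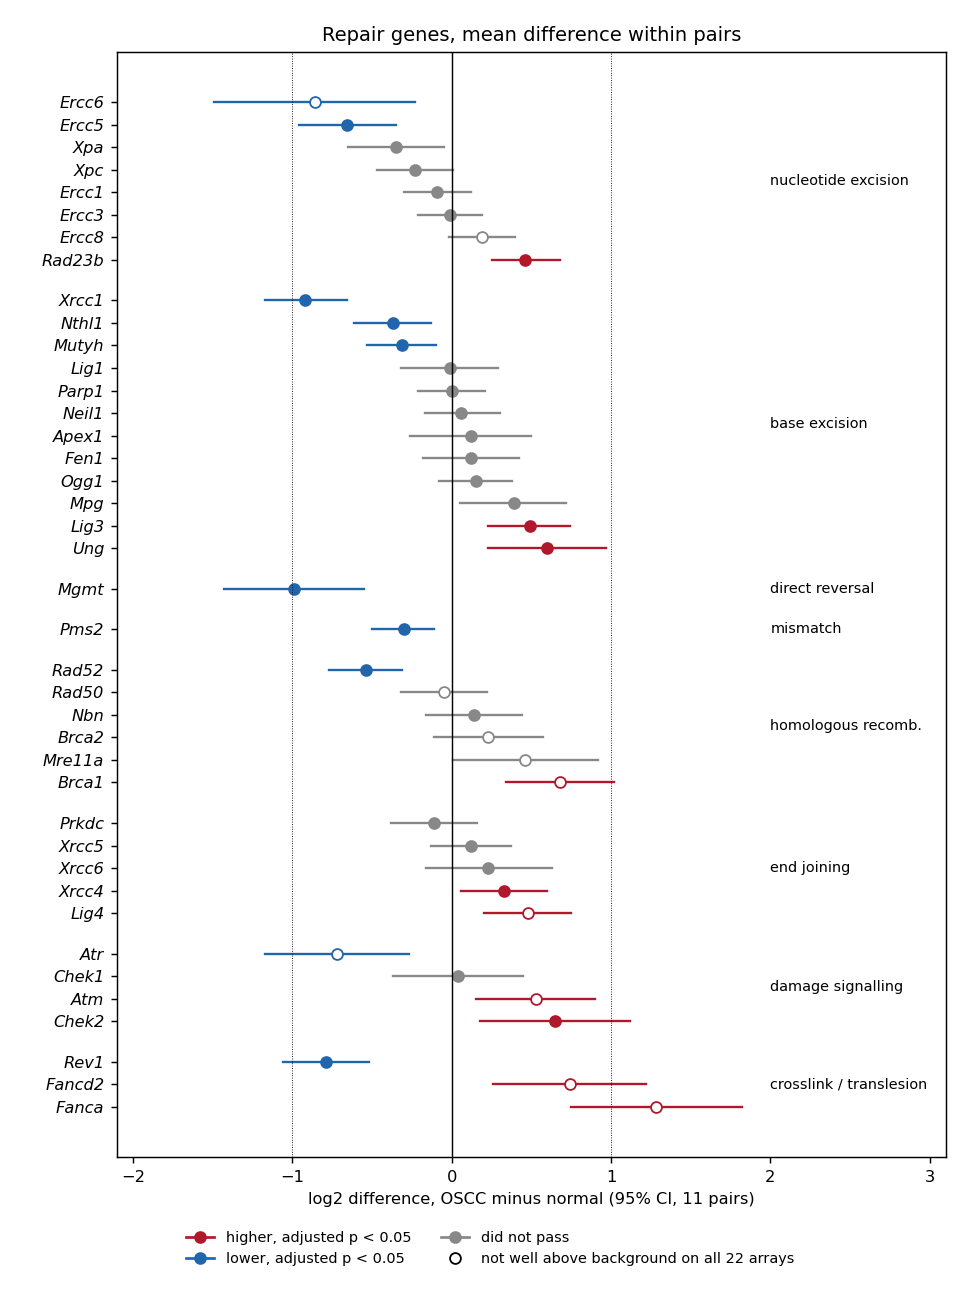
Mean difference of each repair gene on the log2 scale (OSCC minus normal, horizontal axis, 95% confidence interval over 11 pairs), grouped by pathway, with dotted lines at 2-fold. Red genes were higher and blue genes lower at an adjusted p under 0.05, grey genes did not pass, and open points mark genes not well above background on all 22 arrays; Fanca lies farthest right and Mgmt farthest left.

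Nucleotide excision repair was represented by 8 genes, of which 1 rose (12.5%) and 2 fell (25%), beside 16.2% and 27.9% of all probes. Of the 2 that fell, Ercc6 was near background. Rad23b, a partner of the damage sensor Xpc that stabilises it, was higher in OSCC. Its level in normal tissue ran from 2.28 through a median of 2.39 to 2.56, and in OSCC from 2.52 through 2.89 to 3.14. The pieces of OSCC lay above the highest normal piece in 10 of 11 cases, and all 11 pairs went up. The difference was 0.46 ± 0.10 (SE, n = 11 pairs), a ratio of 1.38, with an adjusted p of 0.0033 in limma. Ercc5 encodes Xpg, the nuclease that cuts the damaged strand on the 3′ side of the lesion. Its normal level was -1.01 at the lowest, -0.30 at the median and -0.05 at the highest, and in OSCC -1.59, -1.12 and 0.02. Of 11 OSCC pieces 9 were below the lowest normal piece, and animal 24 was the exception among the pairs, with a difference of 0.16. Ercc5 fell by 0.66 ± 0.14 (SE, limma, adjusted p = 0.0039).

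Ercc6, which encodes the transcription-coupled repair protein Csb, was well above background on 1 normal array and on none of OSCC. Its signal passed as lower (limma, adjusted p = 0.033), with normal values from -6.53 through -5.40 to -3.58 and OSCC values from -7.68 through -6.38 to -4.74. No fold is given, because both tissues were at background. The call of Ercc6 was lost when the pair of animal 4, 9, 11, 13, 16, 17, 25 or 26 was left out, with adjusted p from 0.056 to 0.073. The damage recognition genes did not pass: Xpa, which checks the opened lesion, differed by -0.35 (95% CI -0.65 to -0.05, limma, adjusted p = 0.053), and Xpc by -0.23 (-0.47 to 0.01, adjusted p = 0.11). Xpa spread over 4.6 times the normal SD in OSCC, and its pairs were split. The 7 pairs other than those of animals 17, 21, 22 and 24 had values between -0.84 and -0.45, and those 4 between 0.02 and 0.24. Without animals 21, 22 and 24, Xpa passed at -0.55 (adjusted p = 0.0053) and Xpc at -0.33 (adjusted p = 0.034). The other members were close to level. Ercc1, a subunit of the nuclease that cuts on the 5′ side, differed by -0.09, Ercc3, a helicase of the transcription factor TFIIH, by -0.01 (95% CI -0.21 to 0.19) and Ercc8, the partner of Csb named Csa, by 0.19 (-0.02 to 0.40), the last well above background on 10 normal arrays and all OSCC arrays.

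Base excision repair held the clearest change of the set. Xrcc1, the scaffold on which single-strand breaks are sealed, fell in all 11 pairs. Normal levels were 2.17 at the lowest, 2.63 at the median and 3.06 at the highest, against 1.50, 1.68 and 2.01 in OSCC. The 2 tissues did not overlap, which was so of no other gene of the 40, and which 0.978% of all probes showed with OSCC lower and 0.668% with OSCC higher. The difference was -0.92 ± 0.12 (SE, 95% CI -1.17 to -0.66), so normal tissue held 1.89 times the OSCC signal (limma, adjusted p = 0.00031). The OSCC pieces were also closer together than the normal ones, with an SD of 0.601 times the normal SD. Among the 40 genes, 32 had the greater SD in OSCC, as did 83.2% of all probes. Lig3 encodes the ligase that Xrcc1 holds, and it went the other way. Its normal levels ran from -2.92 through -2.55 to -1.99 and its OSCC levels from -2.70 through -1.94 to -1.53, with 6 OSCC pieces above the highest normal piece. All 11 pairs were higher, by 0.08 to 0.96, and the mean difference was 0.49 ± 0.12 (SE, limma, adjusted p = 0.0076), a ratio of 1.40.

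The probes of Xrcc1 and Lig3 are printed because these partner genes moved in opposite directions and each reading rests on 1 probe. Both 60-base probes cross an exon junction in the array annotation, where the Xrcc1 probe spans chr1:79858972-79859947 and the Lig3 probe chr10:71018025-71018890 of rn4, and are given 5′ to 3′ as deposited.
Xrcc1: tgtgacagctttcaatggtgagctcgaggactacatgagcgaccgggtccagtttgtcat
Lig3: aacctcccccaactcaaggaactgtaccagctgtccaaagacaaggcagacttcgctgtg

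Among the glycosylases, which release damaged bases, 1 rose and 2 fell. Over all probes 16.2% rose and 27.9% fell. Ung, the uracil glycosylase, was narrow in normal tissue, from -1.94 through -1.88 to -1.64, and wide in OSCC, from -2.30 through -1.05 to -0.62. Of the OSCC pieces 8 were above every normal piece and 1 was below. Its SD in OSCC was 5.28 times that in normal tissue. Ung rose by 0.60 ± 0.17 (SE, limma, adjusted p = 0.016), and by 0.88 without animals 21, 22 and 24 (adjusted p = 0.00045). Mutyh, which removes adenine paired with oxidised guanine, was lower in 10 of 11 pairs and differed by -0.31 (limma, adjusted p = 0.026), a call lost without animal 4, 11, 13 or 25 (adjusted p from 0.052 to 0.060). Nthl1, which removes oxidised pyrimidines, was likewise lower in 10 pairs, by -0.37 (adjusted p = 0.022, and 0.052 without animal 11). The glycosylases that did not pass were Mpg, which takes out alkylated purines, at 0.39 (adjusted p = 0.057), Ogg1, which takes out oxidised guanine, at 0.15 (95% CI -0.08 to 0.38) and Neil1 at 0.06. Without animals 21, 22 and 24 Mpg passed at 0.62 (limma, adjusted p = 0.0041) and Ogg1 at 0.27 (adjusted p = 0.044).

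Apart from Lig3 and the scaffold Xrcc1, the later members of the pathway on the list gave no call. Apex1, which cuts at the empty site, differed by 0.12 (95% CI -0.26 to 0.50), with single pairs from -1.05 in animal 24 to 0.85 in animal 13. The flap nuclease Fen1 differed by 0.12 and the replicative ligase Lig1 by -0.01. Parp1, the sensor of strand breaks, had a difference of 0.00 (95% CI -0.21 to 0.21).

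**Figure D2:**
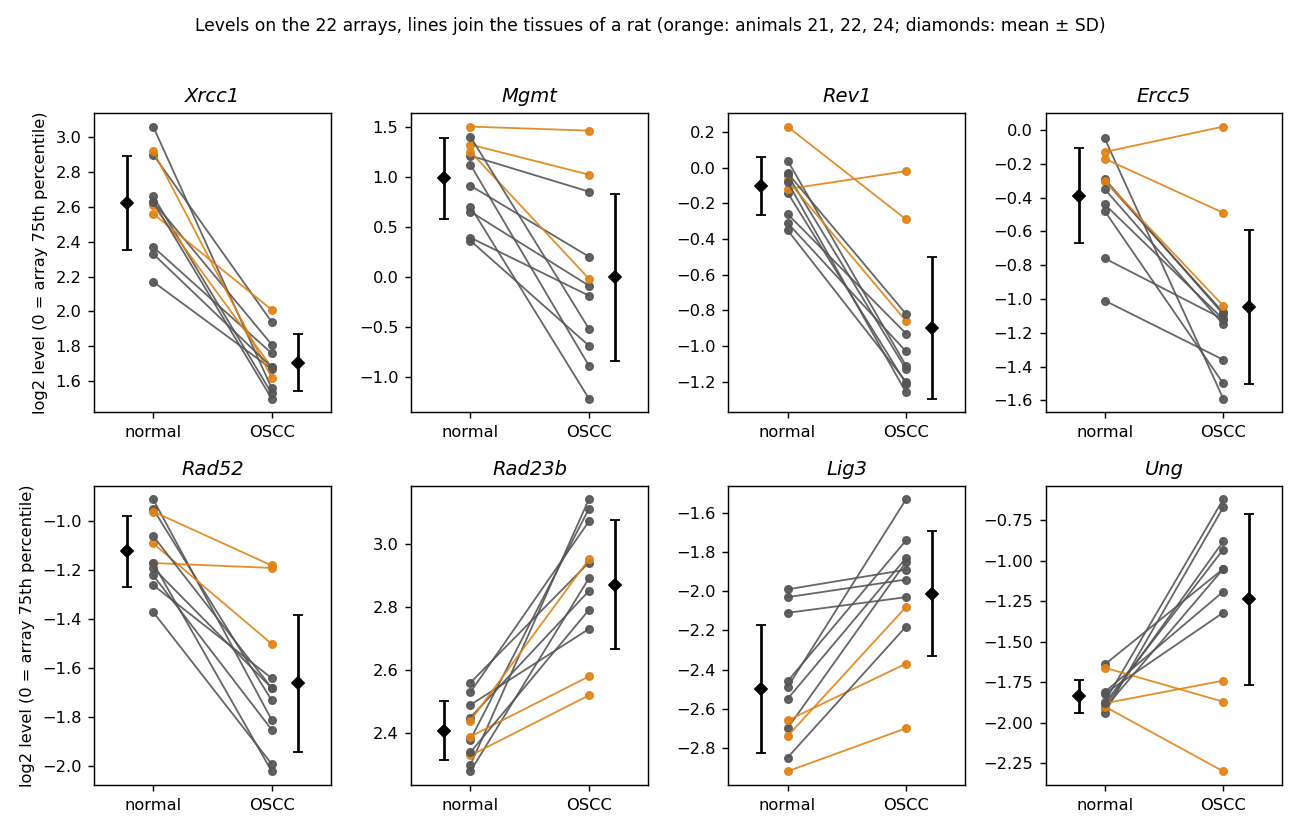
Log2 levels (vertical axes, 0 is the 75th percentile of the array) of 8 repair genes in normal tissue and OSCC, with a line for each of 11 rats and the mean ± SD beside each tissue. Xrcc1 separates the tissues completely, Mgmt, Rad52, Rad23b and Lig3 move the same way in all 11 rats, and animals 21, 22 and 24 (orange) include the exceptions of Rev1, Ercc5 and Ung.

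Mgmt, the protein that takes alkyl groups off guanine and is used up in doing so, had the lowest difference of the 40 genes. Normal pieces had levels of 0.36 at the lowest, 1.12 at the median and 1.50 at the highest, and OSCC pieces -1.22, -0.09 and 1.46. The tissues overlapped, since 8 of 11 OSCC pieces fell below the lowest normal piece and 3 did not, but each rat's OSCC was below its own normal tissue. The size was uneven. In animals 11, 13 and 25 the differences were -2.01, -1.92 and -1.92, whereas animal 24 had -0.04. The mean difference was -0.99 ± 0.20 (SE, limma, adjusted p = 0.0031), with normal tissue at 1.99 times OSCC, and it was -1.16 without animals 21, 22 and 24.

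Pms2, a subunit of the complex that cuts the strand carrying a mismatch, was the 1 mismatch repair gene of the list on the array. Its levels were -0.87, -0.53 and -0.25 (lowest, median and highest) in normal tissue and -1.40, -0.83 and -0.55 in OSCC, where 5 pieces were below the normal range. All 11 pairs were lower or level, down to -0.63. Pms2 fell by 0.30 ± 0.09 (SE, limma, adjusted p = 0.020).

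Of 6 genes of homologous recombination, Rad52 fell and Brca1 rose (16.7% each, beside 27.9% of all probes lower and 16.2% higher). Rad52, which anneals single strands, had normal levels of -1.37 at the lowest, -1.17 at the median and -0.91 at the highest and OSCC levels of -2.02, -1.68 and -1.18. Of the OSCC pieces 9 lay below every normal piece. Rad52 fell by 0.54 ± 0.11 (SE, limma, adjusted p = 0.0025), in all 11 pairs, although animal 21 had only -0.02. Brca1, which directs broken ends to recombination, was above background on no normal array and on 2 OSCC arrays. Its signals were -6.72, -5.97 and -5.24 in normal tissue and -6.26, -5.09 and -4.67 in OSCC, higher in 10 of 11 pairs (limma, adjusted p = 0.0056). No fold can be set for Brca1, and after normexp background correction its difference was -0.15.

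Mre11a, the nuclease that trims broken ends, was well above background on 1 normal array and 8 OSCC arrays. Its levels were -4.25, -3.90 and -3.61 in normal tissue and -5.38, -3.31 and -2.68 in OSCC, where 7 pieces lay above and 1 below the normal range. It did not pass (limma, adjusted p = 0.087), and since nearly all normal signals were at background no fold is given for Mre11a. Its fitted difference of 0.46 was 0.00 after normexp correction. The signal of Mre11a passed as higher without animal 17 (adjusted p = 0.015) and without animals 21, 22 and 24 (adjusted p = 0.042). The partners of Mre11a in its complex, Rad50 (-0.05, 95% CI -0.32 to 0.22) and Nbn (0.14, -0.16 to 0.44), did not pass either. Brca2, which acts with Brca1 in recombination, differed by 0.23 (adjusted p = 0.23). It passed without animals 21, 22 and 24, at 0.48 (adjusted p = 0.0078). Rad50 was well above background on 10 arrays of each tissue and Brca2 on 10 normal and 11 OSCC arrays.

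Of 5 end joining genes 2 rose (40%) and none fell, beside 16.2% and 27.9% of all probes. At an unadjusted p under 0.05 in limma the counts of these 5 genes were the same. Those that rose were the last-step pair, Lig4, the ligase, and Xrcc4, its scaffold. Lig4 had normal levels of -3.50, -3.14 and -2.76 (lowest, median and highest) and OSCC levels of -3.31, -2.69 and -2.28, with 7 OSCC pieces above the normal range. It was higher in 10 pairs, by 0.48 ± 0.13 (SE, limma, adjusted p = 0.012), and was well above background on all arrays but 1 of OSCC. Xrcc4 had levels of -2.91, -2.58 and -2.34 in normal tissue and -2.76, -2.26 and -1.79 in OSCC, and 9 pairs were higher. Its difference of 0.33 ± 0.12 (SE, limma, adjusted p = 0.045) lost its call without animal 4, 9, 11, 13, 16, 21, 24 or 25 (adjusted p from 0.057 to 0.098), and at 0.32 without animals 21, 22 and 24 (adjusted p = 0.086). The end-binding and kinase subunits that act first did not pass. Xrcc6, or Ku70, had levels of 1.85, 2.06 and 3.16 in normal tissue and 1.84, 2.66 and 3.13 in OSCC, and its difference of 0.23 ± 0.18 (SE, limma, adjusted p = 0.30) ran from -1.19 in animal 4 to 1.08 in animal 22. Xrcc5, or Ku80, differed by 0.12 and Prkdc, the DNA-dependent kinase, by -0.11.

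Among the 4 damage signalling genes, Chek2 was the passing gene that was well above background on all arrays. Chek2 is the checkpoint kinase that Atm activates at broken DNA. Its normal levels were -2.70, -2.24 and -1.92 (lowest, median and highest), and its OSCC levels -2.97, -1.32 and -0.76. Of the OSCC pieces 8 were above the normal range and 2 below it, and its SD was 3.87 times the normal one. The difference of 0.65 ± 0.22 (SE, limma, adjusted p = 0.032) was lost as a call without animal 4, 9, 11, 13, 16, 25 or 26 (adjusted p from 0.055 to 0.071). It was 1.04 without animals 21, 22 and 24 (adjusted p = 0.00019). Chek1, the kinase downstream of Atr, differed by 0.04 (95% CI -0.37 to 0.45), with 4 OSCC pieces below and 5 above the normal range and an SD 4.11 times the normal one.

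The upstream kinases were at the limit of detection. Atm was well above background on no normal array and 5 OSCC arrays, with normal signals of -5.87, -5.07 and -4.23 and OSCC signals of -5.06, -4.48 and -4.07. Atm was higher in 10 pairs (limma, adjusted p = 0.031), a call lost without animal 9, 11, 13, 17 or 25 (adjusted p from 0.051 to 0.068). Atr was above background on no array of either tissue, with normal signals of -6.33, -5.73 and -4.70 and OSCC signals of -7.81, -6.21 and -5.38. It passed as lower (limma, adjusted p = 0.018), but signals at background give no order of expression.

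The 3 genes of crosslink repair and translesion synthesis all passed, beside 44% of all probes. Rev1, the translesion polymerase that places cytosine opposite lesions and gathers the other such polymerases, fell. Normal levels were -0.35, -0.08 and 0.23 (lowest, median and highest), and OSCC levels -1.26, -1.03 and -0.02. Of the OSCC pieces 9 were below the normal range and 10 of 11 pairs were lower, with animal 24 the exception at 0.09. The difference was -0.79 ± 0.13 (SE, limma, adjusted p = 0.00078), with normal tissue at 1.73 times OSCC. Fanca and Fancd2, of the Fanconi anaemia pathway, rose. Fanca, part of the core complex that marks Fancd2, was above background on no normal array and 8 OSCC arrays. Its signals were -6.43, -5.51 and -4.76 in normal tissue and -6.48, -3.77 and -2.66 in OSCC, 8 of them above the normal range. The fitted difference was 1.28 ± 0.25 (SE, limma, adjusted p = 0.0021), but its mean OSCC signal did not exceed the lowest signals well above background on the normal arrays, so no lower limit of the fold could be set. After normexp background correction the difference of Fanca was 0.33 and did not pass (adjusted p = 0.74). Fancd2, the protein that is marked and brought to the crosslink, was above background on 3 normal and 10 OSCC arrays. It had levels of -5.16, -4.06 and -3.33 in normal tissue and -4.68, -3.16 and -2.56 in OSCC, and rose by 0.74 ± 0.22 (SE, limma, adjusted p = 0.021), or by 0.21 with no call after normexp correction (adjusted p = 0.90). Single pairs reached 2.16 in animal 9 and were near 0 in animals 17 and 22, with 0.02 and -0.04.

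The probes of Rev1 and Fanca are shown since they carry the lower and the higher end of this group. Each crosses an exon junction in the annotation, at chr9:36995041-36995276 and chr19:53588201-53588465 of rn4.
Rev1: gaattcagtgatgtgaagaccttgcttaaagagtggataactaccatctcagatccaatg
Fanca: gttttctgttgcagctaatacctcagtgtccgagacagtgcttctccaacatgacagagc

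The scan days were set against these calls. In a fit of the 9 pairs scanned on different days 11 repair genes passed: Ercc5, Rad23b, Xrcc1, Lig3, Mgmt, Brca1, Rad52, Lig4, Atm, Fanca and Rev1. The pairs of animals 4 and 9, which that fit did not use and whose tissues were scanned on the same day, went the same way for 10 and 11 of the 11 genes, the exception being Atm in animal 4, at -0.52. Of all 6717 probes that passed in that fit, 94.3% and 97.6% did so. Xrcc1 was -1.14 and -0.82 in those pairs, Mgmt -0.58 and -0.70, Rev1 -0.67 and -0.71, and Rad23b 0.73 and 0.38. With scan day as a term no repair gene passed in limma, which left 3 of all probes called. At an unadjusted p under 0.05 that fit, whose difference rests on the pairs of animals 4 and 9 alone, had 4 higher and 5 lower, and Atm went from 0.53 to 0.05.

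Several repair genes differed widely between pairs. Markers of dividing cells, a list of cell cycle genes, were higher in OSCC in 7 pairs, by means of 0.91 to 1.60, and lower in the pairs of animals 17, 21, 22 and 24, at -0.47, -0.94, -1.10 and -2.52. No dividing cell marker passed in limma over the 11 pairs, at an adjusted or an unadjusted p under 0.05. In those 4 pairs, in the same order, Chek1 was at -0.14, -0.07, -0.46 and -1.37, Lig1 at 0.13, -0.73, -0.41 and -0.75, and Brca2 at 0.02, -0.37, -0.36 and -0.60. In the other 7 pairs Chek1 lay between -0.36 and 1.02, Lig1 between -0.12 and 0.52 and Brca2 between 0.16 and 0.83. Chek1, Lig1 and Brca2 are examples, and not every gene moved so. In animals 17, 21, 22 and 24 Fancd2 was at 0.02, 0.35, -0.04 and 0.10. Brca1, mostly at background, was at 0.24, 0.53, 0.20 and 0.46. Animal 17 parted from animals 21, 22 and 24 for Ung and Chek2, with 1.27 and 1.08, where the latter had -0.21, -0.40 and 0.14 for Ung and 0.17, -0.65 and -0.73 for Chek2. Muscle markers were lower in animal 17 by a mean of -0.84 and leukocyte markers were higher in all 11 pairs, from 0.22 to 3.54. By contrast 2 of the 40 genes, Rad23b and Lig3, were higher in every pair, including these 4. In every pair 4 were lower, Xrcc1, Mgmt, Rad52 and Pms2, although Pms2 was level in animal 16 after rounding. Of all probes 4.61% were higher and 5.25% lower in every pair, and 6.06% and 9.42% of those well above background on all arrays. The part of dividing cells, muscle or leukocytes in the differences was not tested.

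**Figure D3:**
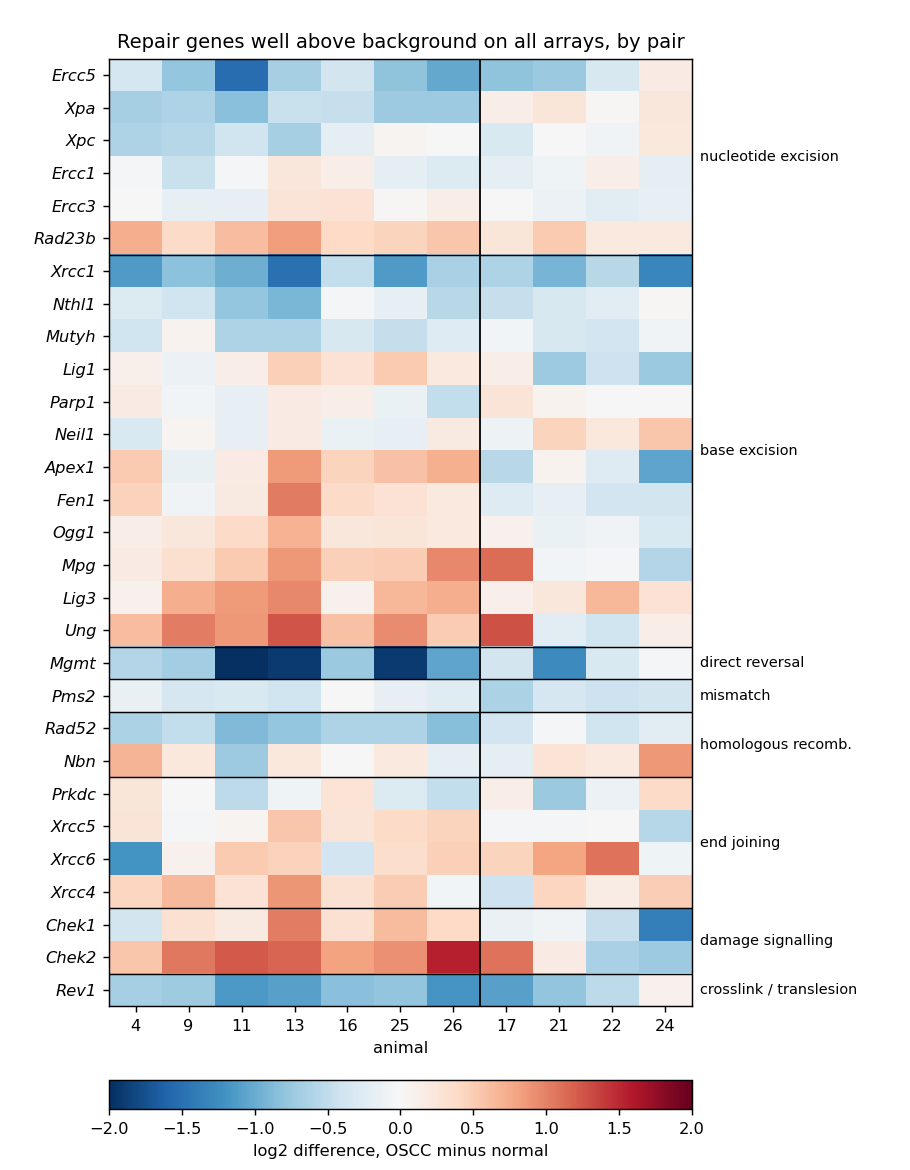
Difference of each of the 29 repair genes well above background on all arrays (rows, by pathway) in each of 11 rats (columns), with red higher and blue lower in OSCC on the log2 scale. The columns right of the line are animals 17, 21, 22 and 24; the rows of Xrcc1 and Rad23b keep 1 colour across all animals, whereas Xpa is blue left of the line and pale or red right of it.

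**Figure D4:**
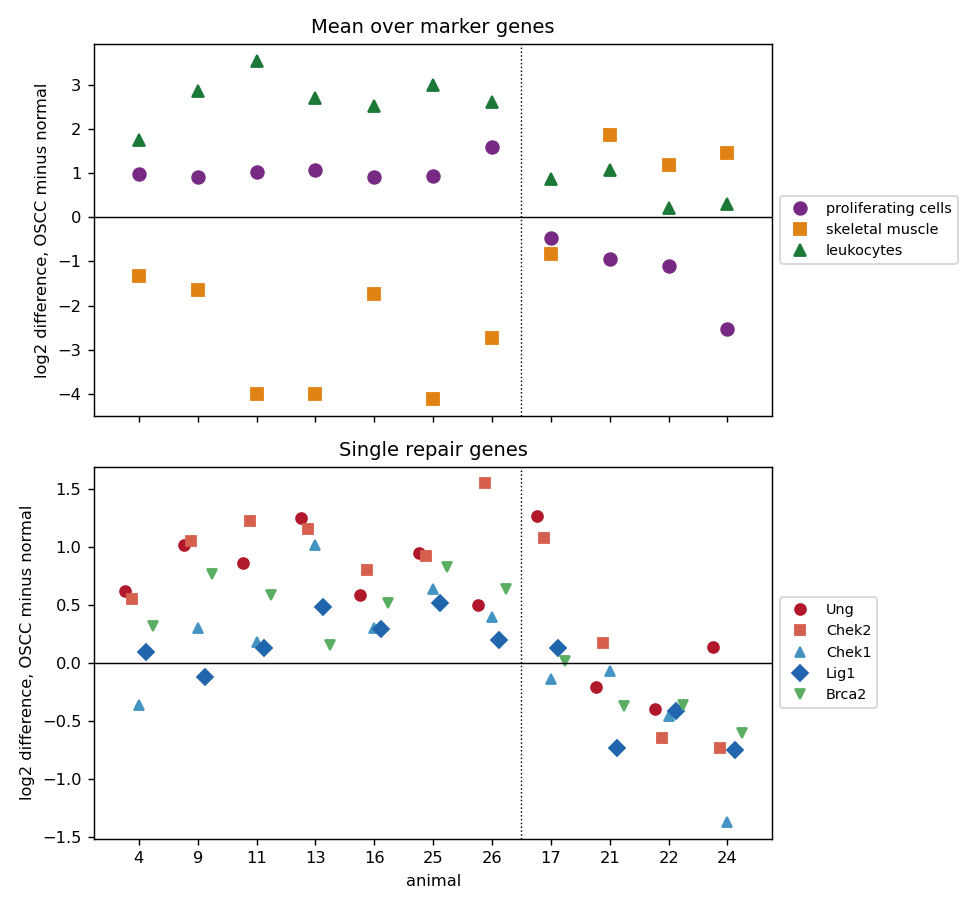
Upper panel: mean log2 difference (OSCC minus normal) of the marker genes of dividing cells, skeletal muscle and leukocytes in each rat; lower panel: the same difference for 5 repair genes. Right of the dotted line, in animals 17, 21, 22 and 24, markers of dividing cells are below 0 and leukocyte markers are nearest to it, and Brca2 and Chek1 lie at or below 0.02.

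Promoter sequence was read for the letters bound by E2F factors, which switch on genes at the start of DNA synthesis. RefSeq promoters of GRCr8, 300 bases from 250 before to 50 after the start, were found for 36 of the 40 genes, not for Xpa, Nbn, Prkdc and Chek2. The letters TTTGGCGC, TTTCCCGC, TTTCGCGC and TTTGCCGC were searched on both strands, and 2.14% of all 33469 promoters held any of them. Among the repair genes 6 did. Ung and Fancd2 had risen, Nthl1 had fallen, and Chek1 and Lig1 had not passed. Atm had passed as higher, with no normal array above background and a call lost without some single pairs. The letters began after the start in Lig1 and Fancd2, at bases 20 and 10, and 239 bases before it in Atm, whose stretch is not printed. For Ung and Chek1, whose differences changed sign between pairs, and for Nthl1, the stretch upstream of the start is printed 5′ to 3′ on the strand of the gene, with the letters in capitals. They are chr12:48154046-48154105 (minus strand), chr8:44629844-44629911 (minus strand) and chr10:14160158-14160245 (plus strand). A match of letters is a description of the sequence, not a site shown to be bound.
Ung: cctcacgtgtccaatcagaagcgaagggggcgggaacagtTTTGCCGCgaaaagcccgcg
Chek1: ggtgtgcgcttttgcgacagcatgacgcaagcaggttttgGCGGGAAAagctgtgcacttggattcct
Nthl1: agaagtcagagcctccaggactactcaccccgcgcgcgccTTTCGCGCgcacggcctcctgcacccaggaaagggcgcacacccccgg

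A wider list of 103 further repair genes, 87 of them on the array, was read in the same fit. Of these 11 rose (12.6%) and 16 fell (18.4%), with a median difference of 0.05, beside 16.2% and 27.9% of all probes. Without animals 21, 22 and 24 there were 30 higher and 16 lower, and with the array median 4 and 27. Of all 30367 probes 5770 were higher and 13866 lower without those animals, and 3364 and 13887 with the array median. Only Blm and Polm passed 2-fold. Blm, the Bloom helicase that dissolves recombination intermediates, was above background on no normal array and 7 OSCC arrays, at least 1.14-fold higher in OSCC (limma, adjusted p = 0.013). That limit is for the mean, since single pairs ran from -1.52 in animal 22 to 4.22 in animal 17, and 2 were lower. Blm passed under 4 of the 5 other scalings, and its lowest difference among them was 0.40. Polm, an end joining polymerase, had normal levels of -0.18, -0.07 and 0.09 and OSCC levels of -0.02, 0.39 and 4.72, and its 1.28 ± 0.46 (SE, limma, adjusted p = 0.041) came with animal 17 at 4.80 and animal 9 at 3.86, while the median pair had 0.57. Its call was lost without animal 4, 9, 16, 17, 25 or 26 (adjusted p from 0.053 to 0.089).

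Further genes of the wider list that passed are named by pathway, a choice made after their values were seen. In base excision repair Polb, the gap-filling polymerase that Xrcc1 binds, fell by 0.83 in all 11 pairs (limma, adjusted p = 0.0010). Aptx, which clears blocked ends and also binds Xrcc1, was 0.53 higher, Parg was 0.42 higher, and Neil2 passed as lower with no array above background. In mismatch repair Mlh3 (-0.48), Rfc1 (-0.44) and Pold2 (-0.34) were lower and Pold4 0.29 higher. Recombination had the most genes that rose, 5 of 16 (31.2%, beside 16.2% of all probes), where the first list had 1 of 6 (16.7%). Recql was 0.28 higher. Gen1 and Rad54b, like Blm, were higher with no normal array above background, Gen1 turning to -0.03 under 1 scaling. Recql4 was lower at -0.85. In translesion synthesis and crosslink repair Rev3l, the catalytic subunit of the polymerase that Rev1 recruits, was lower at -0.55 (limma, adjusted p = 0.0044) in 10 of 11 pairs. Fance was also lower, at -0.47, as was Ube2b, a Rad6 enzyme, at -0.88. These were 3 of 16 genes (18.8%, beside 27.9% of all probes). The other 13 did not pass, among them Ube2a, also a Rad6 enzyme (0.14), and the translesion genes Mad2l2 (0.19), Polh (0.05) and Polk (-0.35). Alkbh3, a direct reversal enzyme, was lower at -0.79 (adjusted p = 0.0042). Of the signalling and end joining genes Atrip, Mdc1, Rnf168, Poll and Tp53bp1 were lower, between -0.51 and -0.25, and Rad17 was 0.36 higher. Gtf2h3, a TFIIH subunit, was the sole nucleotide excision gene of the wider list to pass, at 0.91 and higher in all 11 pairs (adjusted p = 0.0019). The calls of Neil2, Parg, Pold2, Pold4, Recql, Mdc1, Rnf168 and Ube2b were also lost when some single pairs were left out, and those of Pold2 (adjusted p = 0.090), Mdc1 (0.23) and Rnf168 (0.054) without animals 21, 22 and 24.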

How the data were processed

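The arrays were 22 Agilent Rat GE 4x44K arrays of 11 pairs. The authors used Feature Extraction 9.5.3.1, per the file headers, to subtract background and spatial trends, which gave the deposited processed intensity in linear units, unscaled between arrays; mean and background intensities were also deposited. The authors' second table holds the ratio of that signal to the 75th percentile of its array. Here control spots and 9196 outlier spots (0.975%) were left out, log2 signals averaged per probe, and the 75th percentile subtracted. Tissues were compared in limma 3.58.1 (R 4.3.3), with the rat as a block. Both tissues of a pair come from the same rat, and their deviations from the tissue means correlated between -0.21 and 0.24. Genes were matched by array symbol, taking the brightest probe. Every listed gene is named, with full values for the 3 smallest p in each pathway, those past 2-fold, and those near background. Members and lists were chosen with earlier results of these data known. For arrays, their number limits precision. The fit was tested on simulated data. Alternatives were other scalings, filters, tests, blocks and pairs left out. Probe positions are those of rn4 in the array annotation, and promoters are RefSeq, GRCr8. Some results of the wider list are not reported here.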

Additional observations from a re-analysis of the deposited data

How the results depend on the processing

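Counts are of the 40 repair genes, 10 higher and 10 lower, and of the 87 further genes, 11 higher and 16 lower. Scaling to the array median gave 3 repair genes higher, 4 and 27 further genes, and a median of -0.11 for the repair genes. Quantile normalization gave 6 higher. Normexp background correction gave 0 higher and 3 lower (limma, 2 and 4 at an unadjusted p under 0.05), and 1 and 4 further genes, and Brca1 turned to -0.15 while Fanca was 0.33 with no call. The 2-fold threshold gave 1 higher and 0 lower, with 2 and 0 further genes, by limma and by the methods' paired t-test at an unadjusted p. That t-test with adjustment gave 11 and 10. Slide as a random block gave 6 and 6, and 5 and 10 further genes. Scan day as a term gave 0 in each count, where at an unadjusted p limma had 4 and 5, and 7 and 5 further genes. The 9 pairs scanned on different days gave 6 and 5, and 5 and 9. Without animals 21, 22 and 24 there were 13 and 12, and 30 and 16, beside 5770 and 13866 of all 30367 probes. Counting genes well above background on all arrays, an alternative chosen after seeing the data, gave 5 higher. Leaving out each pair gave 7 to 11 higher and 7 to 11 lower, with 6 to 17 and 10 to 16 further genes, and a repair median of 0.04 to 0.12. Without the replicate block there were 11 higher and 11 lower. Of all called probes 36.7% were higher, against 50.5% with the percentile of detected probes and 19.5% with the array median, and the median over all probes ran from -0.44 to -0.03 over the 5 scalings. The causes of these shifts were not tested. Signal over background limits Ercc6, Brca1, Mre11a, Atm, Atr and Fanca, for which no fold can be set.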
